A study of Mus musculus with 10 samples.

Results

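The nuclear genes for subunits of the oxidative phosphorylation machinery were followed in the renal cortex of 10 mice. The members were the genes whose symbol starts with Ndufa, Ndufb, Ndufc, Ndufs, Ndufv, Uqcr, Cox4i, Cox5, Cox6, Cox7, Cox8 or Atp5, without the Ndufaf assembly factors, together with Sdha, Sdhb, Sdhc, Sdhd, Cyc1 and Cycs. The arrays held 84 such genes among 18193 with a probe set of a single gene symbol, and the brightest such probe set stood for its gene. Tests covered the 11486 genes, 81 of the 84 members among them, whose mean log2 value was at least 5.53, the median over probe sets other than controls. Ndufb4, Cox4i2 and Cox7b2 lay below that level. All mice were FVB/N, 20 weeks old, and had lost renal mass by partial ablation of a kidney and then by uninephrectomy. Of these, 5 received losartan at 500 mg/l, a blocker of the type 1 angiotensin II receptor, and 5 received aliskiren at 50 mg/kg per day, an inhibitor of renin. Treatment lasted 6 weeks with either drug and began when 6 weeks had passed since the ablation and 4 since the uninephrectomy. Both groups carry the same surgery and untreated mice were not analysed here, so the values compare the drugs with each other only.

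Oxidative phosphorylation couples the oxidation of NADH and succinate to ATP synthesis at the inner mitochondrial membrane. Complex I takes electrons from NADH and complex II from succinate, complex III passes them from ubiquinol to cytochrome c, and complex IV reduces oxygen with them. The proton gradient built by complexes I, III and IV drives complex V, the ATP synthase. In the kidney cortex the proximal tubule is rich in mitochondria, since sodium reabsorption consumes much ATP. Ndufa4 and Ndufa4l2, named after complex I, are counted here with complex IV, to which NDUFA4 belongs, and Cox7a2l, a factor of respiratory supercomplexes, is listed with complex IV by its symbol. The members fell into 34 genes of complex I, 4 of complex II, 9 of complex III, 19 of complex IV, 17 of complex V and Cycs, which encodes cytochrome c.

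Every array carried its own mouse, and 0 of 45 array pairs were identical. The deposited values ran from 2.096 to 15.06 on the log2 scale, with array medians between 5.53 and 5.57. All 14 proximal tubule markers and all 10 markers of the loop of Henle and distal tubule passed the level filter. Losartan mouse 3 and aliskiren mice 3 and 2 also held fat transcripts. The highest value of the tubular injury marker Havcr1 was in losartan mouse 3. Some results that rest on these mice are also given without them, and the rest are given with all 10 mice only. In whole cortex, fewer cells of a type and less RNA per cell cannot be told apart.

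Expression of the subunit genes was close between the drugs and steady from mouse to mouse. Of 81 tested members 0 passed limma's threshold (adjusted p under 0.05), where 0% of all genes tested passed, and the lowest adjusted p among members was 0.945. Without adjustment, at p under 0.05, 0 members were higher and 0 lower with aliskiren, against 2.19% and 2.53% of all genes tested. With aliskiren, 39 members had a higher and 42 a lower value, and the median difference was -0.0049 on the log2 scale, beside -0.0097 over all genes. Without losartan mouse 3 and aliskiren mice 2 and 3, a choice made after seeing the data, 65 of 81 members had a lower value and the median difference was -0.049, beside -0.0047 over all genes, with 0 members past the threshold. The 2 groups of mice overlapped in all 81 members, while they did not overlap in 0.914% of all genes. For 79 of 81 members the 95% interval of the difference lay within 1.5-fold in both directions (limma), compared with 87.7% of all genes. The exceptions were Cox6b2 and Cox8b. The median member had an unadjusted interval of 0.13 log2 units on either side of its difference. That width is no limit of detection, since differences of 0.16 (Cycs) and -0.15 (Ndufa7) did not pass either. The largest difference in size among members, -0.33 for Cox6b2 (SE 0.20), did not pass. Small changes could be missed with 5 mice per group.

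**Figure D1:**
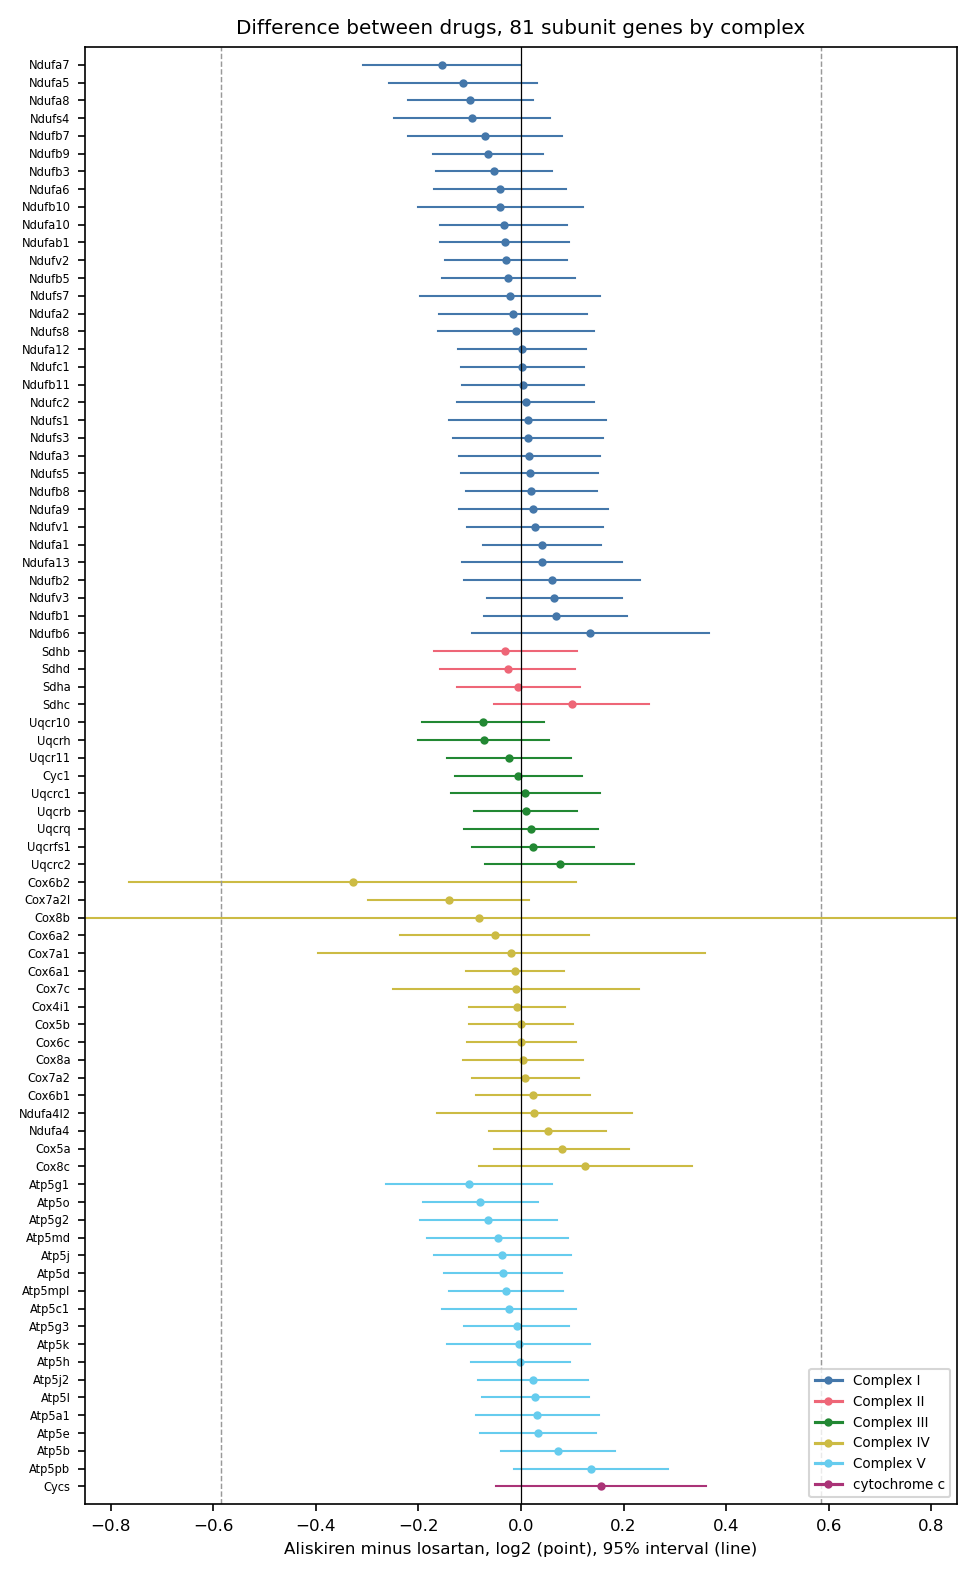
Each point is the difference of a subunit gene between aliskiren and losartan (log2, 5 mice per group) and each line its 95% interval from limma, sorted by complex, with dashed lines at 1.5-fold. Every interval crosses 0, and only those of Cox6b2 and Cox8b reach past a dashed line; the Cox8b interval runs from -2.57 to 2.41, beyond the axis.

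The complexes were alike in this respect. The median difference was 0.0017 for 33 tested genes of complex I, -0.015 for complex II, 0.0087 for complex III, 0.00016 for 17 tested genes of complex IV and -0.0084 for complex V. In complex I, Ndufa7 had the smallest p. Ndufa7, an accessory subunit of complex I, had log2 values of 12.34, 12.15, 12.38, 12.24 and 12.23 in losartan mice 1 to 5 and 12.08, 12.28, 12.17, 12.08 and 11.98 in aliskiren mice 1 to 5. The groups overlapped through aliskiren mice 2 and 3, and the difference of -0.15 (SE 0.07) did not pass (limma adjusted p = 0.945). The other 4 probe sets of Ndufa7 gave differences from -0.15 to -0.11. Ndufa8 had a difference of -0.10 (SE 0.05).

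Complex II was measured through all of its subunits. Sdha, the flavoprotein that oxidizes succinate, had a mean log2 value of 12.56 ± 0.08 (SD, n = 5) in the losartan mice and of 12.55 ± 0.04 in the aliskiren mice. Sdhb, the iron-sulfur subunit, had 13.30 ± 0.11 and 13.27 ± 0.06. The membrane anchors Sdhc and Sdhd differed by 0.10 (SE 0.07) and -0.03 (SE 0.06). In complex III, Uqcr10 and Uqcrh, small accessory subunits, had the smallest p at differences of -0.07 (SE 0.05) and -0.07 (SE 0.06), while the core proteins Uqcrc1 and Uqcrc2 had 0.01 (SE 0.07) and 0.08 (SE 0.07). None of these passed the test.

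Cycs, the electron carrier between complexes III and IV, had log2 values of 13.55, 13.69, 13.30, 13.81 and 13.71 with losartan and 13.74, 13.67, 13.87, 13.74 and 13.83 with aliskiren. The lowest value was that of losartan mouse 3, and the groups overlapped. The difference was 0.16 (SE 0.09) and did not pass (limma adjusted p = 0.945). In complex V, Atp5pb, a subunit of the peripheral stalk, had 13.63, 13.72, 13.42, 13.72 and 13.68 with losartan and 13.70, 13.73, 13.81, 13.86 and 13.75 with aliskiren. Losartan mouse 3 was again lowest, and the difference of 0.14 (SE 0.07) did not pass (limma adjusted p = 0.945). Atp5o, of the same stalk, had -0.08 (SE 0.05), and Atp5g1, Atp5g2 and Atp5g3, whose products mature to the same rotor ring protein, had -0.10 (SE 0.07), -0.06 (SE 0.06) and -0.01 (SE 0.05).

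Of 75 further member probe sets above the level filter, 38 had a difference of the same sign as the probe set used. Across the 10 mice the median member had a range of 0.26 log2 units between its lowest and highest mouse, beside 0.47 over all genes tested, and 73 of 81 members (90.1%) stayed within a range of 0.5, as 54.0% of all genes did. Among the 62 members with a mean log2 value of 12 or more the median range was 0.23, and among the 456 other genes of that level it was 0.44. Cox6a1 varied least, with a highest mouse 1.05 times its lowest, and Cox4i1 followed at 1.07 times. Their mean log2 values, 14.63 and 13.91, lay near the highest value of the table, and the part of signal level in their narrow range was not tested. The members of widest range were Cox8b at 5.49 log2 units, Cox6b2 at 1.31 and Cox7a1 at 0.90, all isoforms of complex IV with a restricted tissue pattern.

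Several subunits of complex IV exist as isoforms, a form of most tissues and a form of heart, skeletal muscle and brown fat, and others as forms of testis. Cox8b, the heart, muscle and brown fat form of subunit 8, had log2 values of 5.72, 5.31, 10.71, 5.86 and 5.78 with losartan and 5.22, 7.23, 9.38, 5.48 and 5.67 with aliskiren. Losartan mouse 3, aliskiren mouse 3 and aliskiren mouse 2 stood above the other 7 mice, which lay between 5.22 and 5.86. On the linear scale losartan mouse 3 was 32.9 times, aliskiren mouse 3 13.1 times and aliskiren mouse 2 2.95 times the median of those 7 mice. The difference between drugs was -0.08 (SE 1.12, limma adjusted p = 0.996).

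Cox7a1, the heart, muscle and brown fat form of subunit 7a, had its 3 highest values in the same mice. They were 9.29 in losartan mouse 3, 8.85 in aliskiren mouse 3 and 8.83 in aliskiren mouse 2, while the other 7 mice lay between 8.39 and 8.72. Cox6a2, the heart and muscle form of subunit 6a, was at 6.33, 6.40 and 6.53 in those mice, against 6.35 to 6.70 in the others. The forms of most tissues showed no such pattern. Cox8a lay between 13.04 and 13.22 in the 7 mice and at 13.11, 13.11 and 13.21 in losartan mouse 3, aliskiren mouse 3 and aliskiren mouse 2. Cox7a2 lay between 13.92 and 14.03 in the 7 mice and at 13.93, 14.01 and 14.04 in those 3.

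Several fat markers were high in the same mice. Ucp1, the uncoupling protein of brown fat, had log2 values of 9.31 in losartan mouse 3, 8.87 in aliskiren mouse 3 and 5.69 in aliskiren mouse 2, and lay between 3.55 and 3.88 in the other 7 mice. Cidea, a lipid droplet protein of brown fat, was at 11.84, 9.21 and 7.13, against 3.69 to 4.33. Adipoq, which encodes the fat hormone adiponectin, was at 12.96, 9.90 and 7.35, against 3.17 to 3.96. Of 6 brown fat markers 3 passed the level filter (Cidea, Prdm16 and Ppargc1a), and their mean level ran from 7.16 to 9.90 with losartan and from 6.97 to 8.77 with aliskiren. Cidea lay below the filter in each of the other 7 mice and passed only through the mice where it was high. The highest mean levels of this list therefore mainly repeat the values of Cidea. Ucp1, Elovl3 and Dio2 had means below the filter, and Dio2 stayed within the range of the other 7 mice. Elovl3, a fatty acid elongase, was highest in aliskiren mouse 3 at 6.69 and at 5.16 in losartan mouse 3, against 3.68 to 4.35. Prdm16 was highest in losartan mouse 3 at 7.47 but was at 6.74 and 6.81 in aliskiren mice 3 and 2, and Ppargc1a was highest in aliskiren mouse 4 at 10.96. The muscle markers Ckm and Acta1, both with means below the level filter, were at 5.13 and 4.32 in losartan mouse 3. In the 7 mice they lay between 4.89 and 5.76 and between 4.04 and 4.49. Myl1, a muscle myosin light chain, also had a mean below the filter. It was at 5.19, 4.27 and 3.94 in losartan mouse 3, aliskiren mouse 3 and aliskiren mouse 2, against 3.23 to 3.81. Only 2 of 12 muscle markers passed the filter. Their mean level was 7.95 in losartan mouse 3, 7.74 in aliskiren mouse 3 and 7.80 in aliskiren mouse 2. Over all 10 mice it ran from 7.43 in aliskiren mouse 4 to 8.09 in losartan mouse 1. The part of fat or muscle tissue in the values of Cox8b and Cox7a1 was not tested.

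**Figure D2:**
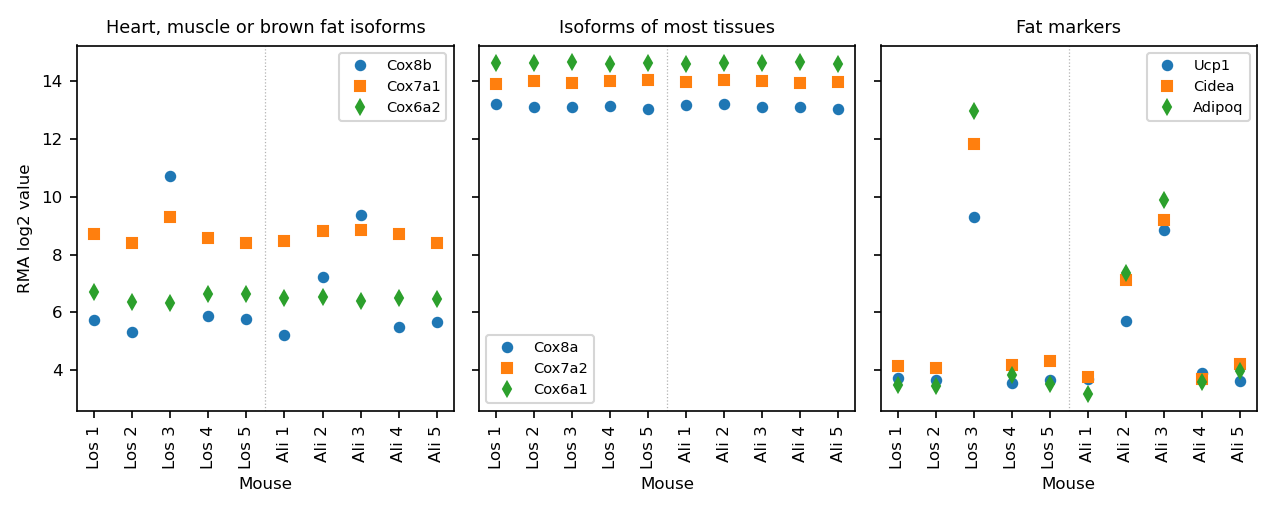
RMA log2 values of single genes in each of 10 mice (Los, losartan; Ali, aliskiren), with isoforms of complex IV in the left and middle panels and fat markers in the right panel. Cox8b, Ucp1, Cidea and Adipoq are high in the same 3 mice, losartan 3, aliskiren 3 and aliskiren 2, whereas Cox8a, Cox7a2 and Cox6a1 are level; values of different genes rest on different probes and have no common scale.

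Cox7a2l had log2 values of 11.30, 11.30, 11.58, 11.33 and 11.37 with losartan and 11.16, 11.39, 11.22, 11.22 and 11.18 with aliskiren. Only aliskiren mouse 2 reached into the losartan range, and the difference of -0.14 (SE 0.07) did not pass (limma adjusted p = 0.945).

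The testis forms did not follow the fat markers. Cox6b2, the testis form of subunit 6b, had log2 values of 6.28, 6.72, 7.21, 6.33 and 6.12 with losartan and 6.30, 6.44, 6.33, 5.90 and 6.05 with aliskiren, so that losartan mouse 3 was highest but aliskiren mouse 3 was not. Its difference between drugs was -0.33 (SE 0.20) and did not pass (limma adjusted p = 0.945). Its counterpart Cox6b1 was at 14.06 ± 0.06 (SD, n = 5) and 14.09 ± 0.05. Cox8c, the testis form of subunit 8, had 7.27, 7.11, 6.89, 7.31 and 7.29 with losartan and 7.15, 7.24, 7.48, 7.29 and 7.34 with aliskiren, lowest in losartan mouse 3. Ndufa4l2, a hypoxia-inducible relative of Ndufa4, lay at 5.64 ± 0.18 and 5.66 ± 0.07, close to the level filter, and Ndufa4 itself at 13.56 ± 0.08 and 13.61 ± 0.02. Below the filter, the lung and hypoxia form Cox4i2 had 4.94 ± 0.15 and 5.04 ± 0.11 and the testis form Cox7b2 had 3.30 ± 0.31 and 3.05 ± 0.19, and neither was tested. Cox4i1, the form of most tissues, had 13.92 ± 0.03 and 13.91 ± 0.01.

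The promoters of the level and of the variable isoforms are set out here because their CpG content differs in both pairs and, for Cox8a and Cox8b, their motif matches do too. Promoter sequences of 300 bases, 250 before and 50 after the annotated start, came from RefSeq (GRCm38.p6), in which 68 of the 84 members had at least 1 entry and 73 promoters in all. The letters searched, on both strands, were GCGC followed by AT and GCGC for the core of the NRF1 site, which reads the same on either strand, CCGGAAG for ETS factors such as GABPA, AAGGTCA for estrogen-related receptors and TATAAA for the TATA box, the last of these chosen after the sequences were seen. NRF1, GABPA and ERR alpha are known regulators of respiratory chain genes. The sequences are printed 5′ to 3′ on the strand of the gene, with matches in capitals. They are Atp5k, a complex V subunit that holds the first 3 motifs, at chr5:108434350-108434649 (minus strand), Cox8a at chr19:7217567-7217866 (minus strand), Cox8b at chr7:140900397-140900696 (minus strand), Cox7a2 at chr9:79759804-79760103 (minus strand) and Cox7a1 at chr7:30183921-30184220 (plus strand).
Atp5k: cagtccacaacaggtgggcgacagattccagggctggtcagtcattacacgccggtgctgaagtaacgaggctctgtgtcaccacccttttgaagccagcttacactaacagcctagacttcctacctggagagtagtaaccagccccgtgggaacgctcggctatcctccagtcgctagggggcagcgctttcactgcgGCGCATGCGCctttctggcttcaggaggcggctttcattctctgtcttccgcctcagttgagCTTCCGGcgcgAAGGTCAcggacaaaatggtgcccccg
Cox8a: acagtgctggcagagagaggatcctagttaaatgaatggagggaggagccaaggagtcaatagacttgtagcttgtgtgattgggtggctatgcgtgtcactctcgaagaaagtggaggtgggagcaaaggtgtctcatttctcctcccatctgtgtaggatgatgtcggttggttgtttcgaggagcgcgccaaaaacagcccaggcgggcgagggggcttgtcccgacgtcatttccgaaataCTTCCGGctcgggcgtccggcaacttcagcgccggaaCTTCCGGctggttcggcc
Cox8b: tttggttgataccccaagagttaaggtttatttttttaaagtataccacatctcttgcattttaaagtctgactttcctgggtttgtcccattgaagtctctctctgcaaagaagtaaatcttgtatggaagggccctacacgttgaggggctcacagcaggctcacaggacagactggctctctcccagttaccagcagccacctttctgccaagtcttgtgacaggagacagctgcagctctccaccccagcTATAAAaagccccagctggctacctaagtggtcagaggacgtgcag
Cox7a2: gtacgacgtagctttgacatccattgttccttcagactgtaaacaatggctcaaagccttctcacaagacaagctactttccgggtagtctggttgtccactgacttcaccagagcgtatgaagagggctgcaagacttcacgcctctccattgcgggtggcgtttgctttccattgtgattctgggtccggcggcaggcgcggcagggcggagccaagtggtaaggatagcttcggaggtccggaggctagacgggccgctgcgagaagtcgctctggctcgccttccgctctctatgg
Cox7a1: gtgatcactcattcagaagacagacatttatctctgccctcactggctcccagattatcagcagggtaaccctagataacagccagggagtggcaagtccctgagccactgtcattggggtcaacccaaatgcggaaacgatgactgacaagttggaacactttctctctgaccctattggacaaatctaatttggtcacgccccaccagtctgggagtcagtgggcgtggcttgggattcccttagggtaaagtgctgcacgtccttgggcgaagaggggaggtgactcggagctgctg

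The Atp5k promoter held 1 match each to the NRF1, ETS and ERR letters, and that of Cox8a held 2 ETS matches. The Cox8b promoter held none of these and 1 TATA match, which lay after the annotated start. The promoters of Cox7a2 and Cox7a1 held no match. No matches overlapped in these 5 promoters. The Cox8b promoter had 2 CpG dinucleotides, the fewest of all 73 member promoters, and that of Cox7a1 had 7, the next fewest. Cox8a had 19 and Cox7a2 had 20, near the median of 19 over member promoters, and the median over all 32851 promoters was 7. Among member promoters 4 (5.48%) held the NRF1 letters, against 0.971% of all promoters. The ETS letters were in 17 (23.3%), against 8.86%, and the ERR letters in 8 (10.96%), against 4.72%. The TATA letters were in 9 (12.3%), against 13.6%, and on the gene strand alone in 3 (4.11%), against 8.32%. The NRF1 and ETS letters contain CpG, of which member promoters held more by median, and shares at like CpG content were not tested. A match describes letters in this window and shows no binding.

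The subunit genes moved little from mouse to mouse, and losartan mice 3 and 4 marked the extremes. Each member's value was set against its own median over the 10 mice. In losartan mouse 3, 64 of 81 members lay below their median, with a median deviation of -0.08 on the log2 scale, where 47.8% of all genes tested and 66.7% of the 456 other genes with a mean of 12 or more lay below theirs, and 40 members (49.4%) had their lowest value there, against 24.9% of all genes tested. Of those 456 genes, 48.0% were lowest in that mouse. Among the 62 members of that level, 85.5% lay below their median there and 53.2% were lowest there. In aliskiren mouse 1, 69 members (85.2%) lay below their median, at a median deviation of -0.04, as did 42.3% of all genes. Losartan mouse 4 held the highest value of 30 members (37.0%), against 11.1% of all genes, at a median deviation of 0.07, and aliskiren mouse 2 had 70 members above their median, at 0.04, and 6714 of all 11486 genes above theirs.

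By complex, losartan mouse 3 had median deviations of -0.12 for complex I, -0.17 for complex II, -0.06 for complex III, -0.0090 for complex IV and -0.08 for complex V. The complex IV median combined deviations in both directions, with 5 of 17 genes at their highest and 4 at their lowest in that mouse, and Cox8b, Cox6b2 and Cox7a1 deviated there by 4.95, 0.90 and 0.64. Losartan mouse 4 had 0.11 for complex I and 0.01 for complex II. In aliskiren mice 3 and 2, the other mice with high Ucp1, the median deviations over all members were 0.00042 and 0.04. The proximal tubule markers had median deviations of -0.31 in losartan mouse 3, -0.17 in aliskiren mouse 1 and -0.03 in losartan mouse 4, and the leukocyte markers had 1.67, 1.09 and -1.40. Their part in the deviations of the subunit genes was not tested.

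**Figure D3:**
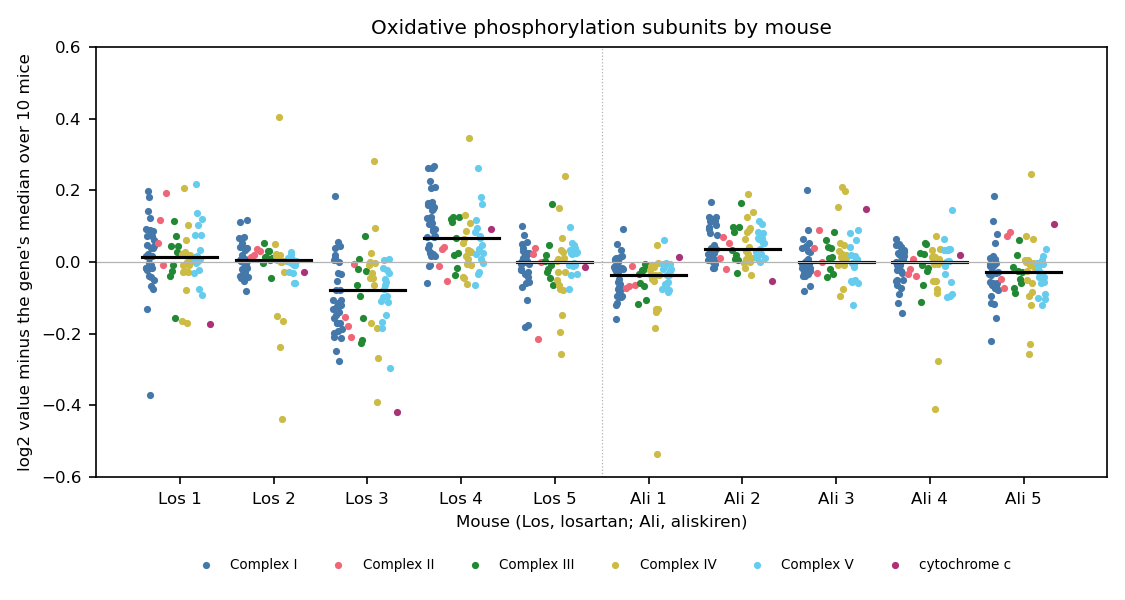
Each point is a tested subunit gene in a mouse, as its log2 value minus its own median over the 10 mice, coloured by complex, and the black bar is the median over 81 genes. The bars lie between -0.08 (losartan 3) and 0.07 (losartan 4); 5 of 810 points, of Cox8b, Cox6b2 and Cox7a1, lie above the axis.

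Most subunit genes had slightly lower values in the mice with more Havcr1, which encodes the tubular injury protein KIM-1. Havcr1 had log2 values of 7.23, 8.69, 10.76, 6.22 and 5.41 with losartan and 9.37, 8.53, 6.08, 6.57 and 7.82 with aliskiren, a spread without separate clusters. The slope of each gene on Havcr1, as the difference in log2 value per log2 unit of Havcr1, was estimated with limma with the drug as a term. It was negative for 67 of 81 members, with a median of -0.014 over members and 0.0089 over all genes, of which 43.4% had a negative slope. Of the other genes with a mean of 12 or more, 66.4% had a negative slope and their median was -0.021. Among the 62 members of that level, 55 (88.7%) had a negative slope and the median was -0.015. After adjustment 1 member (Cox8c) was lower with Havcr1, where 2.91% of all genes were, and 1 (Cox6b2) was higher, where 11% of all genes were. At an unadjusted p under 0.05 the counts were 8 lower and 1 higher, against 10.7% and 21.4% of all genes.

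The negative slopes rested in good part on losartan mouse 3. Without it 50 of 81 members had a negative slope, the median was -0.0047, and 0 members passed limma's threshold in either direction, with 1 lower and 1 higher at an unadjusted p under 0.05. Without losartan mouse 3 and aliskiren mouse 1, the 2 mice of highest Havcr1, 40 members had a negative slope and the median turned to 0.00048. Without losartan mouse 3 and aliskiren mice 2 and 3, the mice with fat transcripts, 57 members had a negative slope and the median was -0.0074. The shares of all genes with these mice left out are not given here. The counts therefore do not show whether the members changed more than other genes. Other probe sets of the members gave the same sign of slope in 67 of 75 cases.

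Complexes I, II, III and V had nearly all slopes below 0, and complex IV did not. Negative slopes were found in 30 of 33 genes of complex I, 4 of 4 of complex II, 9 of 9 of complex III, 15 of 17 of complex V and 8 of 17 of complex IV, with medians of -0.019, -0.020, -0.010, -0.016 and 0.00088. The difference between complexes was not tested. Cycs, at -0.064 (SE 0.022), had the smallest p outside complex IV and did not pass (limma adjusted p = 0.0788). Ndufb10, an accessory subunit of complex I, had log2 values of 11.72, 11.69, 11.54, 11.94 and 11.78 with losartan and 11.63, 11.73, 11.70, 11.76 and 11.65 with aliskiren. It was lowest in losartan mouse 3 and highest in losartan mouse 4, and its slope of -0.048 (SE 0.018) did not pass (limma adjusted p = 0.0977).

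Ndufs1, the iron-sulfur subunit at the entry of electrons into complex I, had 11.96, 11.91, 11.64, 11.94 and 11.98 with losartan and 11.85, 11.94, 11.89, 11.93 and 11.89 with aliskiren. All mice but losartan mouse 3 lay within 11.85 to 11.98, and its slope was -0.044 (SE 0.017). In complex V, Atp5pb had -0.044 (SE 0.017) and Atp5a1, the catalytic-ring alpha subunit, -0.029 (SE 0.015). Uqcrc2 and Uqcrc1 of complex III had -0.032 (SE 0.018) and -0.031 (SE 0.019), and Sdhb and Sdha of complex II -0.028 (SE 0.018) and -0.026 (SE 0.015). None of these slopes passed the test.

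The called slopes belonged to the testis forms. Cox8c fell by 0.080 per log2 unit of Havcr1 (SE 0.016, limma adjusted p = 0.0137), and Cox6b2 rose by 0.16 (SE 0.037, limma adjusted p = 0.0207). Over 10 mice, without the drug term, Cox8c had a Pearson r of -0.842 (permutation p = 0.00194, adjusted 0.0305) and a Spearman rho of -0.818 (permutation p = 0.00592, adjusted 0.102). Cox6b2 had an r of 0.732 (permutation p = 0.0141, adjusted 0.0828) and a rho of 0.515 (permutation p = 0.134, adjusted 0.394). Permutation tests were two-sided, with 100000 resamples and adjustment over all 11485 genes other than Havcr1. Without losartan mice 3 and 5, the mice farthest from the median of Havcr1, r was -0.801 for Cox8c and 0.408 for Cox6b2, so the relation of Cox6b2 rested on those mice. Both calls ended without losartan mouse 3, where the slopes were -0.068 (limma adjusted p = 0.248) and 0.11 (limma adjusted p = 0.367), and that of Cox6b2 also ended without losartan mouse 5 (limma adjusted p = 0.0614). Both slopes kept their sign without losartan mouse 3. The share of all genes still called without that mouse is not given, so the loss is not shown to be particular to these genes. 

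**Figure D4:**
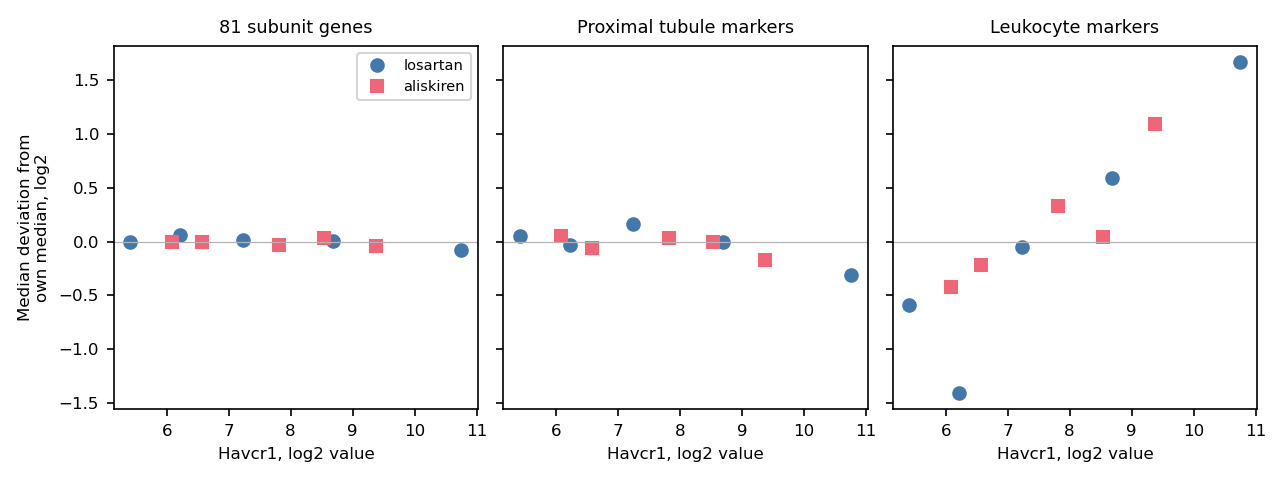
For each mouse, the median over a gene list of the deviation from each gene's own median (log2) is plotted against the Havcr1 log2 value, with circles for losartan and squares for aliskiren. The 81 subunit genes stay between -0.08 and 0.07, the proximal tubule markers between -0.31 and 0.16 and the leukocyte markers between -1.40 and 1.67.

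Beside the subunits, markers of other cells moved with Havcr1. All 14 proximal tubule markers had a negative slope, with a median of -0.040 and 0 that passed. Over all genes tested 43.4% had a negative slope and 2.91% were called lower. Of the genes other than members with a mean of 12 or more, 66.4% had a negative slope. Of the leukocyte markers 8 of 10, of the fibroblast and matrix markers 7 of 9 and of the injury markers other than Havcr1 9 of 9 were higher with Havcr1 (limma adjusted p under 0.05). By the same threshold 11% of all genes were higher. Losartan mouse 3 held the highest value of 8 leukocyte, 9 matrix and 10 injury markers, Havcr1 among them. It also held the highest value of 29.2% of all genes tested. The counts of called markers are given only with that mouse. The leukocyte list had a mean level of 6.57 to 9.28 with losartan and 7.30 to 8.68 with aliskiren. Their part in the slopes of the subunit genes was not tested.

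Genes that build, regulate and feed the respiratory chain were followed in the same fits. Between the drugs 0 genes of any of these lists passed limma's threshold. Among regulators of mitochondrial biogenesis 15 of 15 genes were tested and 12 had a higher value with aliskiren, with a median difference of 0.06. Over all genes 5302 of 11486 had a higher value, with a median of -0.0097. In losartan mouse 3, 13 of the 15 regulators lay below their own median, at a median deviation of -0.15. The drug difference of this list is given only with that mouse. Nrf1, the transcription factor named above, had the smallest p at -0.13 (SE 0.06, limma adjusted p = 0.945), and Ppargc1a, the coactivator PGC-1 alpha, had -0.09 (SE 0.13). Among assembly factors the median differences were 0.0095 for complex I (12 of 13 tested), -0.0035 for complex II (4 of 4), -0.06 for complex III (5 of 6), 0.03 for complex IV (17 of 19) and 0.04 for complex V (3 of 3). Ttc19, an assembly factor of complex III, had the largest of the differences named for these lists, -0.24 (SE 0.08, limma adjusted p = 0.945). Members of smallest p elsewhere were Ndufaf5 at -0.10 (SE 0.06), Sdhaf1 at 0.10 (SE 0.07), Sco2 at 0.12 (SE 0.06) and Tmem70 at 0.13 (SE 0.08).

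On Havcr1, 2 of 15 regulators fell and 0 rose (limma adjusted p under 0.05), where 2.91% of all genes fell and 11% rose. Esrra, which encodes the nuclear receptor ERR alpha, had log2 values of 9.82, 9.44, 9.35, 9.82 and 9.67 with losartan and 9.50, 9.67, 9.77, 9.65 and 9.73 with aliskiren. It was lowest in losartan mice 3 and 2 and aliskiren mouse 1, the mice of highest Havcr1, and its slope was -0.076 (SE 0.022, limma adjusted p = 0.0474). Sirt3, the mitochondrial deacetylase, had 9.75 in losartan mouse 3 and 10.29 to 10.54 in the other mice, and a slope of -0.10 (SE 0.029, limma adjusted p = 0.0432). Ppargc1a had -0.050 (SE 0.038) and Nrf1 -0.0022 (SE 0.018). Of 12 complex I assembly factors 1 fell, Ndufaf4, at -0.085 (SE 0.021, limma adjusted p = 0.0256), and 0 of the other assembly factors passed. Uqcc1 of complex III had -0.061 (SE 0.021) and Cox15, which makes heme a for complex IV, -0.092 (SE 0.034). Without losartan mouse 3 none of the 3 calls held. The slopes were then -0.034 for Sirt3 (SE 0.024, limma adjusted p = 0.618), -0.065 for Esrra (SE 0.031, limma adjusted p = 0.424) and -0.085 for Ndufaf4 (SE 0.029, limma adjusted p = 0.270). How many of all genes were still called without that mouse is not given here. The call of Ndufaf4 also ended without aliskiren mouse 1 or losartan mouse 4 (limma adjusted p = 0.0669 and 0.0543). That of Sirt3 held only without aliskiren mouse 2 or 3 or losartan mouse 2 or 5, and that of Esrra only without aliskiren mouse 4 or losartan mouse 1 or 5, each left out alone, with limma adjusted p up to 0.0877 and 0.0987 when mice other than losartan mouse 3 were left out. Without the drug term and without losartan mice 3 and 5, r was -0.761 for Esrra, -0.857 for Sirt3 and -0.735 for Ndufaf4, after -0.794, -0.738 and -0.794 over 10 mice (permutation p = 0.00601, 0.00795 and 0.0069, adjusted 0.0537, 0.0626 and 0.0579).

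The tricarboxylic acid cycle, which supplies NADH and succinate, had 12 of 13 genes tested, and 10 of them had a negative slope, with a median of -0.026. A negative slope was found in 43.4% of all genes. Among genes other than members with a mean of 12 or more it was found in 66.4%. Sucla2, a subunit of succinyl-CoA ligase, had the smallest p at -0.044 (SE 0.016, limma adjusted p = 0.0878), and Cs, citrate synthase, had the smallest p between the drugs at -0.12 (SE 0.08). Coenzyme Q synthesis, which makes the electron carrier ubiquinone, had 7 of 9 negative slopes, led by Coq2 at -0.051 (SE 0.018), and Coq7 differed between the drugs by -0.12 (SE 0.07). Of 7 tested carriers of ADP, phosphate and the outer membrane 6 had a negative slope, with Vdac1 at -0.039 (SE 0.023) and the adenine nucleotide carrier Slc25a5 at a drug difference of -0.11 (SE 0.06). Other donors of electrons to ubiquinone had 4 of 6 negative slopes, and the electron transfer flavoprotein genes Etfa at a slope of -0.036 (SE 0.024) and Etfb at a drug difference of -0.07 (SE 0.06). No gene of these 4 lists passed limma's threshold in either comparison.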

How the data were processed

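Expression in renal cortex was measured on Affymetrix arrays, 1 per mouse. The authors deposited log2 values; the submitters' processing notes name RMA and Expression Console 1.1. RMA gives every array the same distribution of probe values, so a difference in total RNA per mouse is no longer visible. The genome build of the annotation is not given in the sources used here. Of 45037 non-control probe sets, 34945 had 1 gene symbol, 932 several and 9160 none; 10 of those with several included a member symbol and were not used. All 84 members matched a RefSeq gene record with the same symbol.

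The values were used without further scaling. limma 3.58.1 in R 4.3.3 (lmFit, eBayes, two-sided) gave the drug difference and, with the drug as a term, the slope on Havcr1, with Benjamini-Hochberg adjustment over all genes tested. The fits were tested on simulated data with 200 changed genes among 11485. The drug fit called 58 of 67 genes changed 1.5-fold, 57 of 67 changed 2-fold, 62 of 66 changed 3-fold. For the slope, 27 of 67 were recovered at 0.1, 55 of 67 at 0.2 and 65 of 66 at 0.4 per log2 unit. All these slopes were larger in size than the median of -0.014 over members. Of 11285 unchanged genes the drug fit called 10 and the slope fit 11. The simulated noise was normal and independent between genes, while real genes share differences between mice. These counts therefore give no detection rate for the deposited data. The members, lists and tests were chosen with earlier results of these data known. The rule for named genes took the 2 members of smallest p per complex and comparison, all of complex II, every tissue isoform and the gene of smallest p per pathway list and comparison. Ppargc1a, Nrf1 on Havcr1, the genes with a mean of 12 or more and the promoters shown were chosen after values were seen. The number of arrays, 5 per group, limits the precision. Alternatives are given in the closing section.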

Additional observations from a re-analysis of the deposited data

Results flagged for a closer look

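A gap within a group of 5 mice set apart 8 values among 68 groups checked, 34 named members in each drug group. The limit used sets apart about 1 in 20 groups of independent normal values. The named members share the same mice, and some were chosen by small p. The share over all genes was not counted, so no expected number is set beside the 8. Losartan mouse 3 gave 4 of the 8 values. Its Cox8b value of 10.71 stood above 5.31 to 5.86 in the other losartan mice, and its value of 11.58 for the supercomplex factor Cox7a2l stood above 11.30 to 11.37. Its Ndufs1 value of 11.64 lay below 11.91 to 11.98, and its Ndufa4 value of 13.42 below 13.57 to 13.62. Losartan mouse 1 was highest of its group for Atp5o at 13.12, against 12.99 to 13.03, and for Ndufa8 at 12.24, against 12.03 to 12.08. Aliskiren mouse 2 was highest of its group for Cox7a2l at 11.39, against 11.16 to 11.22, and for Ndufa4l2 at 5.78, against 5.60 to 5.65.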

How the results depend on the processing

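Between the drugs 0 members passed under every alternative run, and the median difference of the members lay between -0.026 and 0.015 when each mouse was left out in turn. Without losartan mouse 3 and aliskiren mice 2 and 3, an alternative chosen after seeing the data, it moved to -0.049, with 65 of 81 members lower; the cause was not tested. With the replicate block, the mouse number as a term, 0 members passed between the drugs, and on Havcr1 0 were lower and 0 higher. The labels number the mice within each drug and name no pairing. Deviations of same-numbered mice correlated between -0.23 and 0.42. Pairs of other numbers were not set beside them, so these values cannot decide whether the numbers pair the mice. The block is given only as an alternative.

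The counts of members called on Havcr1 were 1 lower and 1 higher. They were 0 lower and 0 higher with a level filter at the upper quartile (percentile 75), with array weights, without losartan mouse 3 and aliskiren mouse 1, without losartan mouse 3 and aliskiren mice 2 and 3, and without the 2 mice farthest from the median Havcr1. The ordinary t statistic gave 0 higher. The mean of all probe sets gave 3 lower, an adjusted p under 0.10 gave 3 and the tubular injury list in place of Havcr1 gave 7. The shares of all genes called under the same settings are not given here. These counts alone do not show whether members stood out. Leaving out each mouse in turn gave 0 to 1 in either direction. The cause of these changes was not tested. With the middle letters of the NRF1 core free, 24.7% of member promoters matched, against 6.23% of all promoters. On the gene strand alone 6.85% held the ETS letters, against 4.77%, and 4.11% the ERR letters, against 2.52%. Ndufa4l2, Cox6b2, Cox6a2, Cox8b, Cox7c and Cox8c, with means from 5.65 to 7.24, were low in signal, which limits what their values can show.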
